A study of Mus musculus with 2 samples.

Results

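The genes followed are leukocyte adhesion molecules of endothelium: the selectins Sele and Selp, the immunoglobulin-family receptors Vcam1, Icam1, Icam2, Icam5 and Pecam1, and the sialomucin Cd34. They were chosen by name, with earlier results of these data known. All 8 of 8 were found among the 31053 genes listed in the files, and all 8 had UMIs (unique molecular identifiers, each standing for 1 captured transcript). The data are raw UMI counts from 2 single-cell libraries of mouse lung with acute lung injury, both of strain C57BL/6, 1 from wild-type (WT) lung and 1 from p47phox-KI lung. p47phox is the organiser subunit of the phagocyte NADPH oxidase, encoded by Ncf1, and KI is the submitters' label for its knock-in. Lungs were perfused and digested with collagenase, erythrocytes were lysed, cells stained for viability and for the leukocyte antigen CD45.2 were sorted, and libraries were made with a 10x kit that reads the 3' end of transcripts. The agent and time of injury, the sort gate, the cell type that carries the knock-in allele, and the number and age of the animals are not given in the sources used here.

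Leukocytes leave blood in steps. Selectins on activated endothelium catch passing cells on sugar ligands such as PSGL-1, integrins on the leukocyte then bind ICAM and VCAM receptors and hold the cell, and PECAM-1 at the junctions takes part in its passage through the wall. In most tissues this happens in venules, whereas in the lung neutrophils are also held in alveolar capillaries. Sele, Vcam1 and Icam1 are known targets of NF-kB in endothelium exposed to inflammatory cytokines, P-selectin is also stored in Weibel-Palade bodies, and Icam2 and Pecam1 are constitutive in endothelium.

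In WT, 10473 barcodes carried 43376713 UMIs, and in KI, 9120 barcodes carried 43445797. Of the barcode sequences, 30 occurred in both libraries. After filtering, 7735 WT and 6636 KI cells remained, of which 4417 and 3619 carried endothelial markers, with medians of 3585 and 4158 UMIs. Endothelial subtypes were named from marker genes that do not include the members, and the members took no part in the clustering. The aerocyte-like capillary group (marked by Car4, Ednrb and Apln) held 1962 WT and 1575 KI cells, and the general capillary-like group (Gpihbp1, Plvap, Aplnr) 1526 and 1492. The arterial-like group (Gja5, Bmx) held 231 and 138 cells, and the venous-like group (Slc6a2, Bst1, Vwf) 195 and 187. A further 494 WT and 226 KI endothelial cells stayed unnamed, and 9 WT and 1 KI cells were lymphatic-like. Ncf1 had 182 UMIs in kept WT cells and 162 in kept KI cells, 5 and 6 of them in endothelial cells, and a 3' tag does not show which allele was read.

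Different clusters made up the capillary groups in the 2 libraries. Aerocyte-like cluster 5 held 1067 WT and 129 KI cells and aerocyte-like cluster 4 held 56 and 684. General capillary-like cluster 0 held 334 and 75 cells and cluster 1 held 316 and 687. General capillary-like cluster 7, with 208 WT and 321 KI cells, was led by heat-shock and early-response genes (Hspa1a, Hspa1b, Hsph1, Atf3, Ier3, Zfp36), by Neurl3 and Cxcl10, and by haemoglobin genes, and is called the Hspa1a-led cluster here. Because each genotype is 1 library there is no replicate and no test. Levels are CPM, a gene's UMIs scaled to 1000000 UMIs of the same group of cells, with exact Poisson 95% intervals, and are not compared between genes. Ratios are log2 of KI over WT with exact conditional binomial 95% intervals. All intervals cover counting error only.

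The members lie on chromosomes 1, 3, 9 and 11 (GRCm38, GENCODE M21). Sele spans chr1:164048234-164057677 on the plus strand, and Selp follows it on the same strand at chr1:164115264-164150026, 57586 bases further on. Icam1 (chr9:21015985-21028817, plus strand) and Icam5 (chr9:21032073-21039036, plus strand) are separated by 3255 bases that hold Icam4. The antisense gene Gm47079 overlaps both Icam1 and Icam5, and the antisense gene Gm26592 overlaps Icam5. Vcam1 lies at chr3:116109949-116129688 on the minus strand. Icam2 (chr11:106377656-106388075) and Pecam1 (chr11:106654217-106750628) share a chromosome and the minus strand, and Cd34 lies at chr1:194938819-194961279 on the plus strand.

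Sele, Selp, Icam1 and Icam5 all stood higher in the Hspa1a-led cluster than in the other general capillary-like clusters. The 250 bases before their RefSeq start sites are shown (GRCm38.p6, plus strand). Capitals mark each match, on either strand, to the NF-kB consensus with at most 1 mismatch, and in Sele also TATAAA. Windows were at hand for 5 of the 8 members. Cd34, whose window is not printed, also stood higher in the Hspa1a-led cluster. Without the cell with most UMIs in each library, Cd34 was at 633 CPM there and 479 CPM in the other general capillary-like clusters in WT. In KI the same levels were 603 and 577 CPM.
Sele: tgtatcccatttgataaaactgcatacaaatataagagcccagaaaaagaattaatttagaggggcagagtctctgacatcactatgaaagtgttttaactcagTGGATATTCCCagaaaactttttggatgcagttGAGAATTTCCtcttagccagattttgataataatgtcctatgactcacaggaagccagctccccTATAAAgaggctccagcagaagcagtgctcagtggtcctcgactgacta
Selp: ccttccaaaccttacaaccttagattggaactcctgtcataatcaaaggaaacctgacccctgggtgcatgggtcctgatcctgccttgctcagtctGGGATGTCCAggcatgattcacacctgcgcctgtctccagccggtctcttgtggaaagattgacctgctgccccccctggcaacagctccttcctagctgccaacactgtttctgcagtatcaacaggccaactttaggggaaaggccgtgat
Icam1: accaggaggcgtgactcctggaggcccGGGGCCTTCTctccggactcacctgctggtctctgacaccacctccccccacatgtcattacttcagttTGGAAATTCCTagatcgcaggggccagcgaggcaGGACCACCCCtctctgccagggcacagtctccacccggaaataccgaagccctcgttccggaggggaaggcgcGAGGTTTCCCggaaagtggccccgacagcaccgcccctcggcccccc
Icam5: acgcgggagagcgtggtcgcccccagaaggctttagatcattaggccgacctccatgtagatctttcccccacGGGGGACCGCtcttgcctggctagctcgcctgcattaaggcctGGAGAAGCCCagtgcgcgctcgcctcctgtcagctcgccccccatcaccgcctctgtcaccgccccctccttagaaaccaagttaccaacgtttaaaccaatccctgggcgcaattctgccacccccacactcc
These windows are chr1:164047984-164048233, chr1:164115014-164115263, chr9:21015690-21015939 and chr9:21031788-21032037. No window held the full NF-kB consensus, which was present in 7.25% of 32841 RefSeq promoter windows of the same length. With 1 mismatch allowed, Sele, Selp, Icam1 and Icam5 each held a match and Cd34 none, but so did 56.6% of all windows. Matches on opposite strands overlap at 1 place in Sele, 1 in Selp, 2 in Icam1 and 1 in Icam5. In Sele the matched bases begin 146 and 113 bases before the start, and TATAAA, found in 12.4% of windows, begins 49 bases before it. The letters TGANTCA, searched on both strands and found in 6.75% of windows, were in Sele and Selp. Another motif searched on both strands, AGGAAG (29.5% of windows), was in Sele, Selp and Cd34, and the interferon-stimulated response element (2.98%), in none of the 5. These are matches of letters only.

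**Figure D1:**
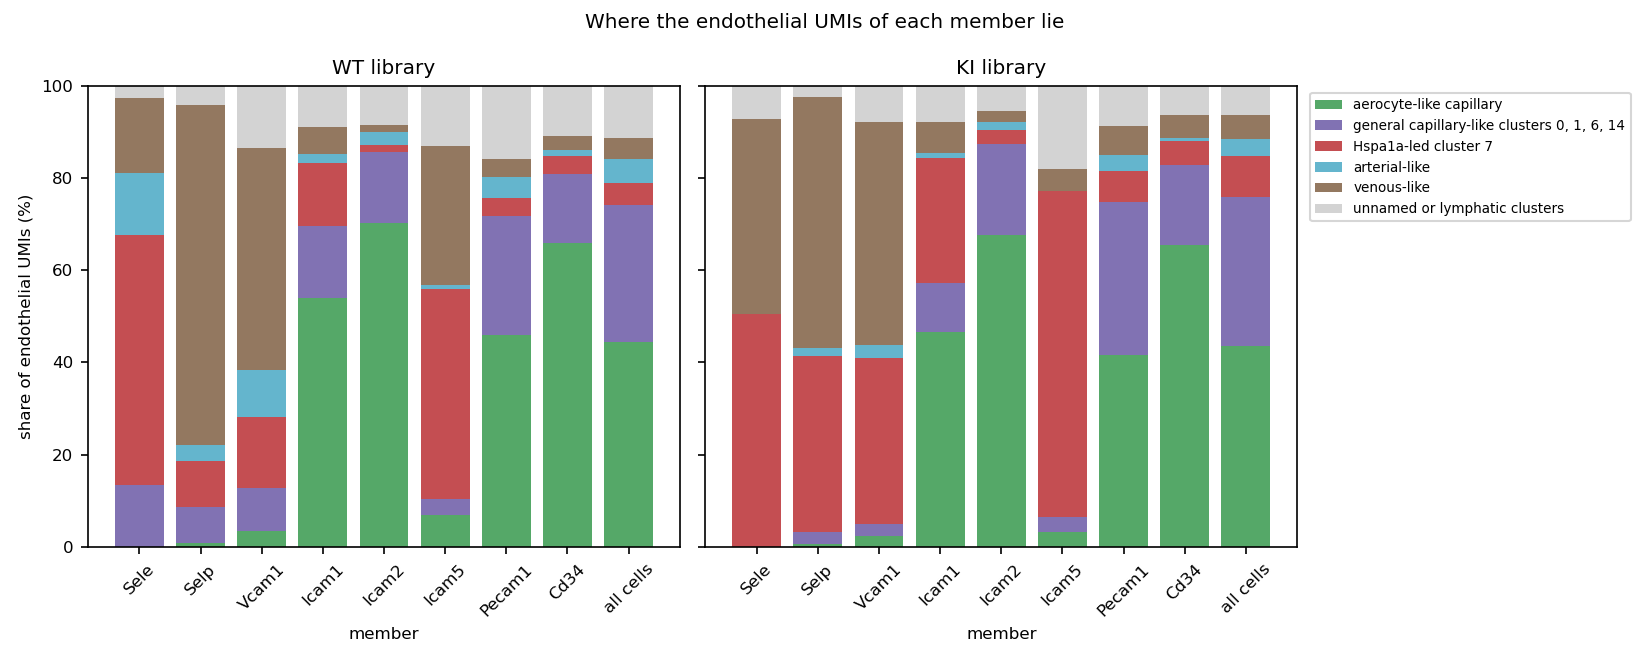
Stacked bars give, for the WT library (left) and the KI library (right), the share of each member's endothelial UMIs (%) that lies in each endothelial group; the last bar gives the share of cells. The venous-like group is 4.41% of WT and 5.17% of KI endothelial cells but holds 73.7% and 54.4% of Selp UMIs, whereas Icam2 and Cd34 lie mostly in aerocyte-like cells.

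The 8 genes divided by vessel type. Sele, Selp, Vcam1 and Icam5 were near absent from aerocyte-like capillary cells. Their UMIs were concentrated in venous-like cells and the Hspa1a-led cluster, except that KI venous-like cells held only 4.80% of Icam5 UMIs, against 30.2% in WT. Icam2 and Cd34 were highest in aerocyte-like cells, Icam1 was highest of the 5 groups in the Hspa1a-led cluster, and Pecam1 varied least. The Hspa1a-led cluster is 4.71% of WT and 8.87% of KI endothelial cells, and it held 9.93% and 38.3% of Selp UMIs, 15.4% and 36.1% of Vcam1 UMIs and 45.7% and 70.8% of Icam5 UMIs. The venous-like group held 48.1% and 48.5% of Vcam1 UMIs. Over 24 points (endothelial clusters by library with at least 30 cells), log2(CPM + 1) of Selp and Vcam1 had a Pearson r of 0.86, Sele and Selp 0.84, and Icam2 and Pecam1 0.80, whereas Vcam1 and Icam2 had -0.76. The points share 2 libraries and their depths, so these are descriptions.

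**Figure D2:**
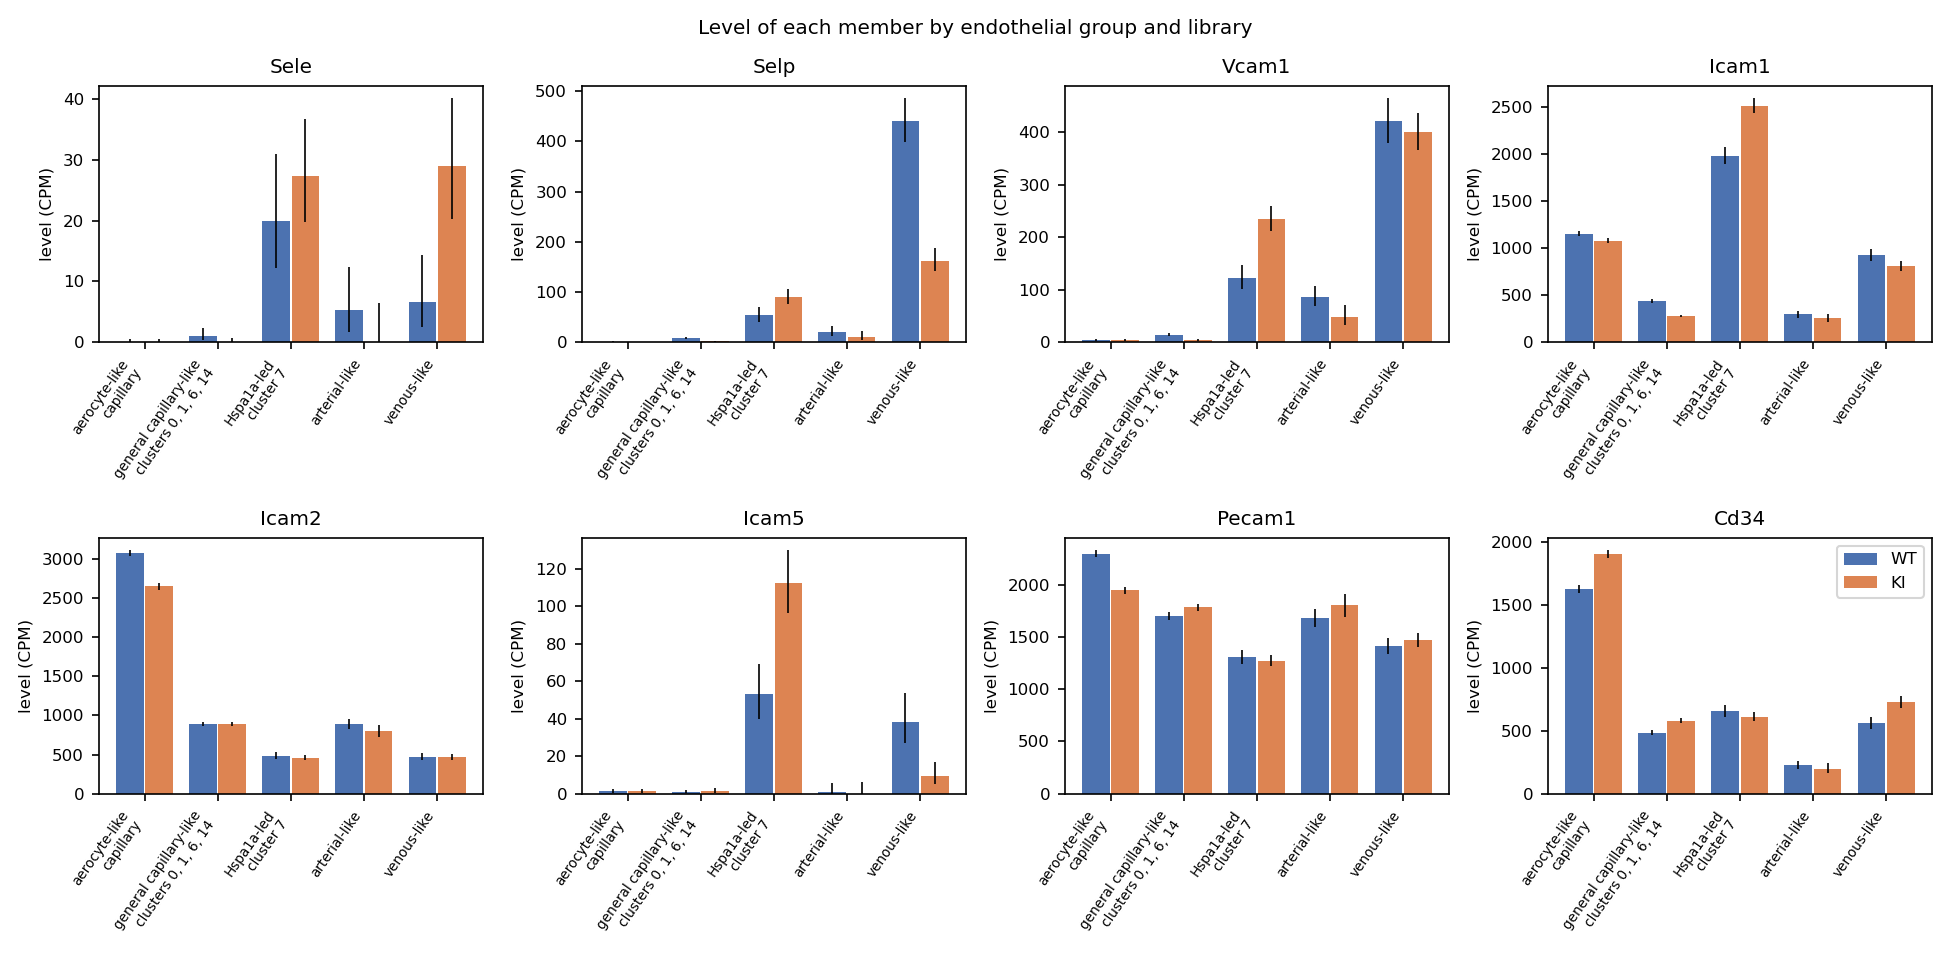
Each panel is 1 member; bars give its level (CPM, linear axis from 0) in 5 endothelial groups for WT (blue) and KI (orange), and lines are exact Poisson 95% intervals. Selp in venous-like cells stands at 441 CPM in WT and 163 in KI, while Vcam1, Icam1 and Icam5 in the Hspa1a-led cluster are taller in KI.

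Selp encodes P-selectin. It was at 441 CPM (401 UMIs, 95% interval 399 to 486) in WT and 163 CPM (202 UMIs, 141 to 187) in KI venous-like cells. The 2 intervals did not overlap, and the log2 ratio was -1.44 (-1.69 to -1.19). UMIs of Selp were found in 24.1% of WT and 17.1% of KI venous-like cells, and in 17.5% and 8.99% after thinning each cell to 1500 UMIs. As background, 0 of 450 WT and 0.211% of 475 KI type 2 alveolar-like cells had a Selp UMI at median depths of 12907 and 14486, against 4366 and 5604 in venous-like cells. The KI value was lower both in the share of cells with Selp (47 of 195 WT and 32 of 187 KI cells) and in the level, but intervals were compared for the level only. In the Hspa1a-led cluster the order was the opposite, with 54.0 CPM (54 UMIs) in WT and 90.1 CPM (142 UMIs) in KI. The log2 ratio was 0.74 (0.28 to 1.22). Only 6 of 208 WT and 17 of 321 KI cells of this cluster held Selp, so the higher KI value was carried by few cells. Without the cell with most UMIs in each library, 32 WT and 121 KI UMIs remained. The sign of this ratio depended on the processing, from -0.93 to 1.45. In the remaining general capillary-like clusters Selp was at 8.37 CPM (43 UMIs) in WT and 1.82 CPM (10 UMIs) in KI, and in arterial-like cells 19 UMIs stood beside 6. Aerocyte-like cells held 4 WT and 2 KI UMIs. The order in WT was venous-like, Hspa1a-led, arterial-like, other general capillary-like and aerocyte-like, and the intervals of neighbours in that order did not overlap. The venous direction held without the cell with most UMIs in each library (-1.56) and without cells with a haemoglobin UMI (-1.29). With marked doublets kept the ratio was 0.62, but the group then named venous-like was another set of 220 WT and 371 KI cells. It shared 49 cells with the 382 described here and 473 with the Hspa1a-led cluster.

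At clustering resolution 2, a division looked at after the data were seen, the venous-like cells mostly fell into a cluster led by Slc6a2 (112 WT and 95 KI cells) and a cluster led by Fabp4, a fatty-acid carrier (85 and 101 cells). By the same markers the Slc6a2-led cluster was named venous-like and the Fabp4-led cluster general capillary-like, so the venous-like group described here takes in cells that a finer division assigns to capillaries. The lower KI Selp lay in the Slc6a2-led cluster, at 618 CPM (334 UMIs) in WT and 174 CPM (119 UMIs) in KI, giving a log2 ratio of -1.83 (-2.14 to -1.52). A Selp UMI was found in 40 of 112 and 26 of 95 of its cells. Some leading genes of the Hspa1a-led cluster also differed between libraries in the Slc6a2-led cluster. Hspa1a was at 869 CPM in WT and 2137 CPM in KI, and Atf3 at 202 and 547. Neurl3 was at 77.7 and 92.1 CPM, whereas Cxcl10 was lower in KI, at 250 and 51.2. Whether the Slc6a2-led cluster held the same kind of cells in both libraries was not tested. In the Fabp4-led cluster 67 UMIs (179 CPM) stood beside 96 (157 CPM), with a log2 ratio of -0.18 (-0.65 to 0.29), so no difference was detectable there at this depth. Summed markers of smooth muscle or pericytes in the Slc6a2-led cluster were at 72.1 CPM in WT and 440 CPM in KI (9 and 10 of 11 with a UMI), Cnn1 was at 0 in both, and their part in the result was not tested. Platelets also carry P-selectin, and the 7 platelet markers summed to 5 WT and 9 KI UMIs in this cluster, with Gp1bb and Gp5 at 0 in both.

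Sele encodes E-selectin, which is made by activated endothelium. All endothelial cells together held 37 WT and 85 KI UMIs, or 2.08 and 4.99 CPM, with a log2 ratio of 1.26 (0.69 to 1.86). Venous-like cells held 6 UMIs (6.59 CPM, 2.42 to 14.4) in WT and 36 UMIs (29.0 CPM, 20.3 to 40.1) in KI, with a log2 ratio of 2.14 (0.88 to 3.67). These UMIs came from 4 WT and 7 KI cells, and 1 KI cell held 10 of them. The higher KI value was thus carried by few cells. With marked doublets kept the ratio was -0.24, but the group then named venous-like was mostly Hspa1a-led cells, as given for Selp. In the Fabp4-led cluster 3 UMIs in 2 WT cells stood beside 32 UMIs in 6 KI cells, and in the Slc6a2-led cluster 3 UMIs beside 4. The Fabp4-led cluster also differed between libraries in its leading genes, with Fabp4 at 959 CPM in WT and 3910 CPM in KI, Rbp7 at 4 and 188 UMIs, and Glycam1, which encodes a mucin-like selectin ligand, at 0 and 53. Whether the same kind of vessel was sampled in both libraries was not tested. In the Hspa1a-led cluster Sele had 20 UMIs in WT (interval 12.2 to 30.9 CPM) and 43 in KI (27.3 CPM, 19.7 to 36.7), and the interval of the log2 ratio, -0.35 to 1.29, included 0. Arterial-like cells held 5 WT UMIs and 0 KI UMIs, where a count of 0 allows up to 5.21 CPM. None was found in aerocyte-like cells, which allows up to 0.443 CPM in WT and 0.476 in KI.

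Vcam1 encodes the receptor for the integrin VLA-4. Venous-like cells stood at 421 CPM (383 UMIs) in WT and 401 CPM (498 UMIs) in KI, with a log2 ratio of -0.07 (-0.27 to 0.13), and 33.3% and 32.1% of cells had a UMI. One KI cell held 138 of the 498 UMIs, and without the cell with most UMIs in each library the levels were 377 and 296 CPM. The Hspa1a-led cluster stood at 123 CPM (123 UMIs, 102 to 147) in WT and 235 CPM (371 UMIs, 212 to 261) in KI. There the KI level was higher beyond counting error, with a log2 ratio of 0.94 (0.64 to 1.24), and 21 of 208 WT and 48 of 321 KI cells had a UMI. Its size depended on the processing, from 0.18 with the stricter cell filter to 2.19 as a mean of per-cell CPM. In arterial-like cells the order was the opposite, with 86.7 CPM (82 UMIs) in WT and 48.6 CPM (28 UMIs) in KI. The log2 ratio there was -0.83 (-1.51 to -0.20). Arterial-like cells holding Vcam1 numbered 22 among 231 in WT and 13 among 138 in KI, which are similar shares. The lower KI level thus lay in the UMIs of few cells and not in the share of cells. In the other general capillary-like clusters 14.4 CPM (74 UMIs) stood beside 4.55 (25 UMIs). Aerocyte-like cells stood at 3.99 and 3.97 CPM. As background, 1.11% of WT and 0.421% of KI type 2 alveolar-like cells had a Vcam1 UMI.

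Vcam1 was the member least specific to endothelium. Of its UMIs in kept cells, 26.0% in WT and 37.0% in KI were in endothelial cells. Fibroblast-like cells held 2077 WT and 1527 KI UMIs, at 493 and 365 CPM, giving a log2 ratio of -0.44 (-0.53 to -0.34). Macrophage-like or monocyte-like cells stood at 154 and 176 CPM in 39 and 43 cells.

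Icam1 encodes the receptor for the beta2 integrins LFA-1 and Mac-1. The Hspa1a-led cluster stood at 1981 CPM (1981 UMIs, 1895 to 2070) in WT and 2514 CPM (3962 UMIs, 2436 to 2593) in KI, with a log2 ratio of 0.34 (0.27 to 0.42). Aerocyte-like cells stood at 1154 and 1079 CPM, venous-like cells at 928 and 809, and arterial-like cells at 295 and 255. The other general capillary-like clusters were lower in KI, at 438 CPM in WT and 278 in KI, and the log2 ratio was -0.66 (-0.75 to -0.56). Within them, cluster 0 stood at 645 and 389 CPM, cluster 6 at 376 and 298, and cluster 1 at 277 and 249. Clusters 0 and 6 were lower in KI beyond counting error, the intervals of cluster 1 overlapped, and cluster 0, the highest, had more WT than KI cells. Of the aerocyte-like clusters, cluster 3, led by Fosl1 and Phlda1, stood at 2028 and 2274 CPM, and clusters 4, 5 and 9 between 889 and 1021 CPM in both libraries. Type 1 alveolar-like cells also carried Icam1, at 1614 CPM in WT and 1013 in KI, and type 2 alveolar-like cells at 677 and 591.

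Icam5, which encodes telencephalin, was described in brain neurons and also binds LFA-1. Of its UMIs in kept cells, 58.6% in WT and 73.3% in KI were in endothelial cells. In the Hspa1a-led cluster it stood at 53.0 CPM (53 UMIs, 39.7 to 69.3) in WT and 112 CPM (177 UMIs, 96.4 to 130) in KI, giving a log2 ratio of 1.08 (0.63 to 1.55), and 11.1% of WT and 19.3% of KI cells had a UMI. After thinning these shares were 6.31% and 10.4%, against 1.15% and 1.38% of type 2 alveolar-like cells. The venous-like group had the opposite order, with 35 UMIs (38.5 CPM) in WT and 12 UMIs (9.66 CPM) in KI, with a log2 ratio of -1.99 (-3.07 to -1.01). One WT cell held 17 of the 35, and 9 cells in each library had a UMI. The share of venous-like cells with Icam5 was 4.62% and 4.81%, and after thinning 2.68% and 1.57%, the KI value being close to that of type 2 alveolar-like cells. The difference thus lay in the UMIs of few cells. Without the cell with most UMIs the ratio was -1.30. With marked doublets kept it was 0.86, but the group then named venous-like was mostly Hspa1a-led cells, as given for Selp. Aerocyte-like, arterial-like and other general capillary-like cells stood at or below 1.46 CPM. Of the overlapping antisense genes, Gm26592 had 9 WT and 20 KI UMIs in the Hspa1a-led cluster and Gm47079 had 5 and 7. Icam4, which lies between Icam1 and Icam5, had 12 and 24. Icam5 and its antisense genes were counted separately. Whether the counting used strand is not given in the sources used here, so how far their reads were kept apart is not known.

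Icam2, a constitutive LFA-1 ligand, stood at 3075 CPM (3034 to 3117) in WT and 2649 CPM (2609 to 2689) in KI aerocyte-like cells, and the log2 ratio was -0.22 (-0.24 to -0.19). The other groups were far lower. Other general capillary-like cells stood at 891 and 889 CPM, arterial-like cells at 891 and 796, the Hspa1a-led cluster at 486 and 459, and venous-like cells at 473 and 473. In WT the arterial-like and other general capillary-like levels did not differ beyond their intervals, nor did those of the Hspa1a-led cluster and venous-like cells. Of Icam2 UMIs in kept cells, 97.1% and 96.1% were endothelial.

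Pecam1, the junctional receptor used as a general endothelial marker, ranged from 1307 CPM in the Hspa1a-led cluster to 2299 CPM in aerocyte-like cells of WT, and from 1273 to 1948 CPM in the same groups of KI. Its log2 ratios were -0.24 in aerocyte-like cells, 0.07 in other general capillary-like cells, -0.04 in the Hspa1a-led cluster, 0.10 in arterial-like cells and 0.06 in venous-like cells. None passed 0.5.

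Cd34, a sialomucin that can carry selectin ligands, stood at 1623 CPM in WT and 1902 CPM in KI aerocyte-like cells, giving a log2 ratio of 0.23 (0.19 to 0.27). Arterial-like cells were lowest at 226 and 200 CPM. Venous-like cells stood at 559 CPM (509 UMIs) in WT and 727 CPM (903 UMIs) in KI, with a log2 ratio of 0.38 (0.22 to 0.54). The Hspa1a-led cluster stood at 655 and 612 CPM with an interval of the log2 ratio, -0.24 to 0.05, that included 0. In fibroblast-like cells Cd34 stood at 240 CPM in WT and 342 CPM in KI, and the log2 ratio was 0.51 (0.40 to 0.63).

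**Figure D3:**
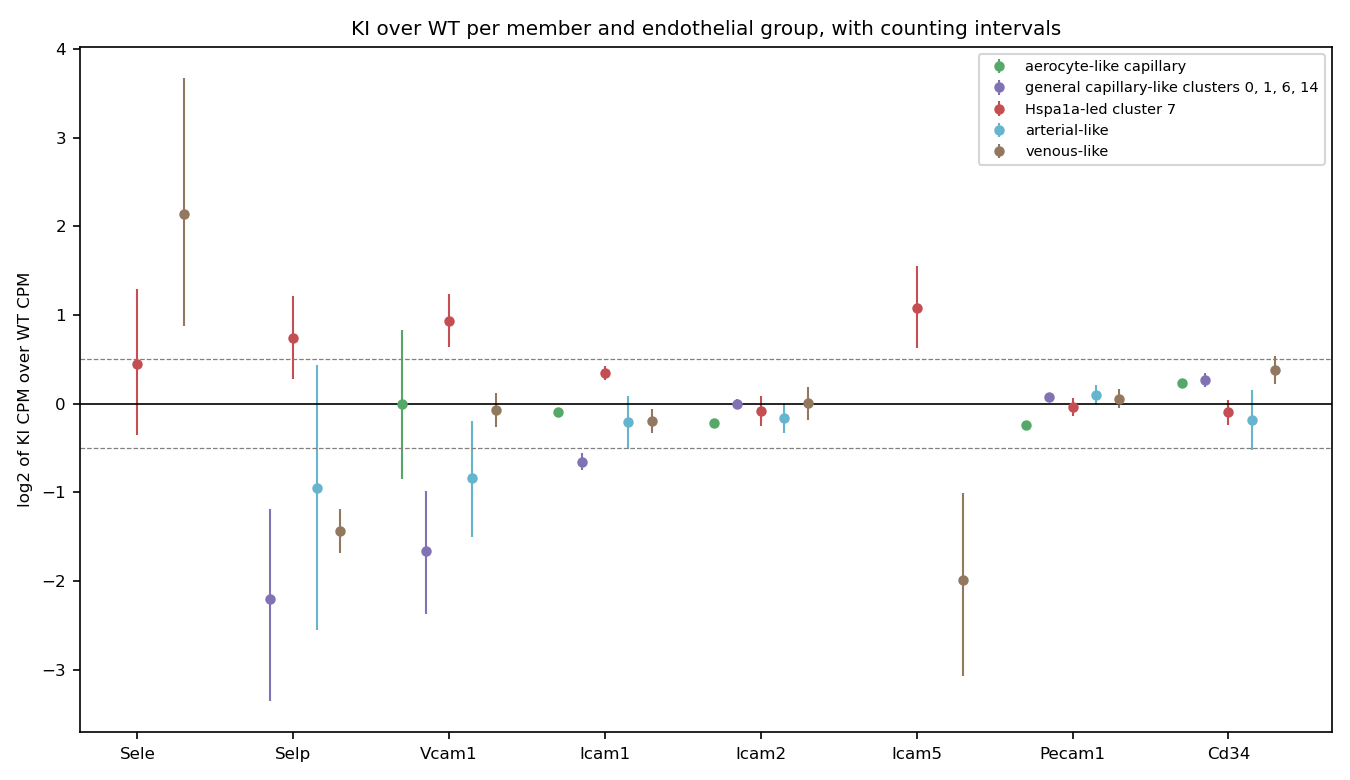
Points give log2 of KI over WT CPM for each member in 5 endothelial groups (colours), for members with at least 20 UMIs over both libraries and a UMI in each; lines are exact conditional binomial 95% intervals and dashed lines mark 0.5 in either direction. Selp, Vcam1 and Icam5 have points on both sides of 0, whereas Icam2, Pecam1 and Cd34 stay within 0.5.

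Set out as counts, a member is past the fold when its log2 ratio is at least 0.5 in either direction with at least 20 UMIs over both libraries. In all endothelial cells 2 of 8 members were higher in KI (Sele and Icam5) and 0 lower, where 18.8% of 13430 genes were past the fold (12.7% higher and 6.02% lower). Selp, at -0.49, lay just inside the fold and its sign depended on how cells were grouped, from -0.90 with clusters weighted alike to 1.44 with each library clustered alone. In capillary cells 4 of 8 (Sele, Selp, Vcam1, Icam5) were higher and 0 lower, beside 18.8% of 12643 genes (12.5% higher and 6.37% lower), and the interval of Sele included 0. In arterial-like cells 2 of the 6 members measured were lower (Selp and Vcam1), beside 28.4% of 7858 genes (16.1% higher and 12.2% lower), and the interval of Selp, -2.56 to 0.43, included 0. In venous-like cells Sele was higher and Selp and Icam5 lower, 3 of 8 beside 27.1% of 8735 genes (17% higher and 10.1% lower). In the Slc6a2-led cluster 2 of 7 measured members were lower (Selp and Icam5) and 0 higher, beside 31% of genes (16.8% higher and 14.2% lower), and in the Fabp4-led cluster 2 of 7 were higher (Sele and Vcam1) and 0 lower, beside 32.3% (21% higher and 11.3% lower). The median log2 ratio of measured members was 0.35 in capillary, -0.19 in arterial-like and -0.03 in venous-like cells, beside 0.06, 0.02 and 0.05 for all genes.

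The capillary count rested on the Hspa1a-led cluster. There 3 of 8 members (Selp, Vcam1, Icam5) were higher and 0 lower, beside 25.8% of 8979 genes (16.7% higher and 9.12% lower). In the other general capillary-like clusters 3 of 6 measured members (Selp, Vcam1, Icam1) were lower and 0 higher, beside 24% of 11360 genes (16% higher and 7.98% lower). Over all general capillary-like cells 3 of 8 (Sele, Vcam1, Icam5) were higher and 0 lower, beside 22.3% of genes (15.3% higher and 7.02% lower), and the interval of Sele, -0.16 to 1.35, included 0. Selp, at 0.44 there, turned to -3.78 at clustering resolution 0.5. In aerocyte-like cells 0 of 5 measured members were past the fold, beside 18.2% of 11080 genes (10.2% higher and 8.01% lower). When clusters were weighted alike in WT and KI, 2 of 8 members (Vcam1 and Icam5) stayed past the fold in capillary cells, at log2 ratios of 0.61 and 1.08, and Selp and Sele were at 0.39 and 0.19. At clustering resolution 0.5, where the Hspa1a-led cells joined the venous-like group, Sele, Selp and Vcam1 in capillary cells stood at -1.17, -2.76 and -0.52.

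Cells with a haemoglobin UMI were more frequent in KI over all endothelial cells, where 4345 of 4417 WT and 3050 of 3619 KI cells had none. In the Hspa1a-led cluster the 5 erythroid markers summed to 2 UMIs in WT cells and 3539 in KI cells, with Hba-a1, Hbb-bt and Alas2 at 0 in WT. Among the 206 WT and 283 KI cells of the cluster with no haemoglobin UMI, the log2 ratios were 1.06 (0.76 to 1.37) for Vcam1, 1.15 (0.67 to 1.64) for Icam5, 0.76 (0.29 to 1.25) for Selp and 0.32 (0.24 to 0.40) for Icam1, beside 0.94, 1.08, 0.74 and 0.34 over all its cells. The venous marker Slc6a2 had 6 UMIs in WT and 102 in KI cells of the cluster. In the 204 WT and 302 KI cells without a Slc6a2 UMI, Selp stood at 1.11, Vcam1 at 1.12 and Icam5 at 1.08. Without the cell with most UMIs in each library, Selp stood at 1.25, Vcam1 at 1.25 and Icam5 at 1.15. Neutrophil markers summed to 11 UMIs in either library.

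Detection of the members in the same single cells was read in the Hspa1a-led cluster and in venous-like cells. In KI cells of the Hspa1a-led cluster, 7 of 17 cells with a Selp UMI also had a Sele UMI (41.2%), while 14 of all 321 cells had one. In WT cells of the cluster only 1 of 6 cells with Selp had Sele and 1 of 21 with Vcam1 had Selp (4.76%, against 2.67% of cells without Vcam1), too few to compare. KI cells with Selp were deeper, with a median of 9242 UMIs against 4167. In venous-like cells 31 of 65 WT cells with Vcam1 also had Selp (47.7%, against 12.3% of cells without Vcam1), and 22 of 60 KI cells did (36.7% against 7.87%). Median depths were 4851 and 3642 UMIs for WT cells with and without Vcam1, and 6442 and 5267 for KI cells. The part of depth in these shares was not tested.

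**Figure D4:**
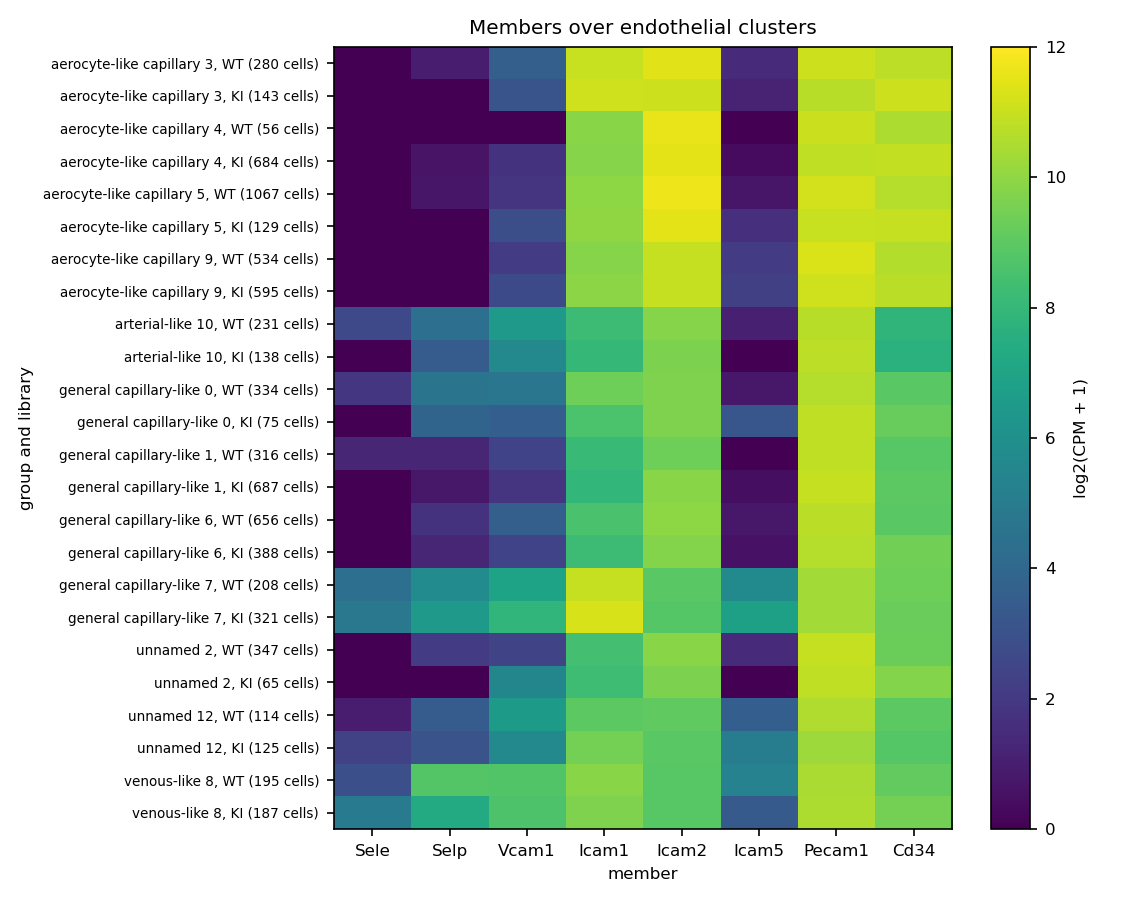
Colours give log2(CPM + 1) of each member (columns) in endothelial clusters with at least 30 cells per library (rows, WT and KI side by side). Sele, Selp and Vcam1 are brightest in venous-like cluster 8 and general capillary-like cluster 7, Icam5 in cluster 7, and Icam2 and Cd34 in aerocyte-like clusters 3, 4, 5 and 9.

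The genes most like each member in profile over the same 24 points, among 9281 genes, were as follows. Rnd1, Selp and Dnajb1 were most like Sele (r 0.86, 0.84 and 0.83). Btg1, Myc and Vcam1 were most like Selp (0.89, 0.88 and 0.86), and Nudt4, Ctps and Top2a most like Vcam1 (0.89, 0.87 and 0.87). Phlda1, Gadd45b and Gadd45g, induced by stress, were most like Icam1 (0.94, 0.93 and 0.91), and Zfp36, Egr1 and Rnd1 most like Icam5 (0.90, 0.87 and 0.87). Tmbim6, Tmem140 and Impdh1 were most like Icam2 (0.97, 0.97 and 0.96), and Serinc3, Serinc1 and Acvrl1 most like Pecam1 (0.91, 0.87 and 0.86). Apln, Bin1 and Edil3 were most like Cd34 (0.94, 0.92 and 0.92), and Apln is itself an aerocyte marker.

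The 8 lists of genes around the members were read in the same groups. Of 21 NF-kB regulators and targets, 17 were measured in the Hspa1a-led cluster, with 5 higher and 1 lower in KI and a median log2 ratio of 0.17, beside 0.06 for all genes, of which 16.7% were higher and 9.12% lower. The chemokine gene Cxcl2 was lower (52 and 21 UMIs, log2 ratio -1.96) and the adaptor gene Traf1 higher (6 and 18 UMIs, 0.93), as were Tnfaip2 (0.72) and the apoptosis inhibitor gene Birc3 (68 and 161 UMIs, 0.59). The intervals of Traf1 and Tnfaip2 included 0. In the other general capillary-like clusters 1 of 16 was higher and 8 lower, with a median of -0.48 beside 0.07. Bcl3 (318 and 108 UMIs, -1.65), Relb (207 and 73, -1.60), Cxcl2 (-1.52) and Tnfaip3, which encodes the feedback inhibitor A20 (216 and 95, -1.28), were lowest. In these clusters 16% of all genes were higher and 7.98% lower, and Icam1, Vcam1 and Selp were lower too. In aerocyte-like cells 0 of 15 were higher and 5 lower, with a median of -0.34 beside 0.04, where 10.2% of all genes were higher and 8.01% lower. The lowest were Tnfaip3 (403 and 133 UMIs, 59.5 and 21.1 CPM), Zc3h12a (-1.10), Bcl3 (-0.93) and Birc3 (-0.85).

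In venous-like cells the same list was divided, with 4 of 19 higher and 4 lower and a median of 0.01 beside 0.05, where 17% of all genes were higher and 10.1% lower, so the higher count was near the share of all genes. The neutrophil chemokine gene Cxcl1 (12 and 57 UMIs, 1.80) and Nfkb2 (13 and 40, 1.17) were higher in KI. Csf3, which encodes the granulocyte growth factor G-CSF (21 and 5 UMIs, -2.52), and Bcl3 (56 and 38, -1.01) were lower. In arterial-like cells 2 of 10 were higher (Cx3cl1 at 1.09 and Irf1 at 0.80) and 3 lower. The lower genes were Relb (20 WT and 0 KI UMIs), Bcl3 at -1.34, and Tnfaip3 at -0.72, whose interval, -2.22 to 0.59, included 0. Of all genes there 16.1% were higher and 12.2% lower.

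Of the 8 genes of the Weibel-Palade body and its release, 8 were measured in venous-like cells, with 2 higher and 0 lower. The counts of this and the next lists in venous-like cells stand beside 17% of all genes higher and 10.1% lower. Rab27a, a small GTPase of these granules, was at 71 WT and 147 KI UMIs (log2 ratio 0.60), and Angpt2 at 12 and 30 (0.87). Vwf, the main cargo of the granules, stood at 2598 and 1914 CPM there, giving a log2 ratio of -0.44. The interval of Angpt2 included 0. Of 14 junction and transmigration genes, 3 of 13 measured in venous-like cells were higher and 0 lower, led by Nectin2 (18 and 64 UMIs, 1.38), and 1 of 13 in the Hspa1a-led cluster, again Nectin2 (8 and 33, 1.39), beside 16.7% of all genes there. Of 12 upstream receptors and adaptors, 0 of 11 were higher and 3 lower in venous-like cells, with Cd14 at -0.97, Traf6 at -0.77 and the interleukin 1 receptor gene Il1r1 at -0.54, and the intervals of Cd14 and Traf6 included 0. Of 12 sialomucin and ligand-synthesis genes, 3 of 6 measured in aerocyte-like cells were higher and 1 lower, beside 10.2% and 8.01% of all genes. The higher genes were Gcnt1 at 7 and 16 UMIs (1.30) and St3gal4 at 22 and 30 (0.55), both with intervals that included 0, and the sulfotransferase gene Chst2 at 756 and 1337 UMIs (0.93). The lower was the sialomucin gene Podxl at 6008 and 3776 (-0.57). Of 7 shedding proteases and regulators, 6 were measured in venous-like cells, with 0 higher and 1 lower (Rhbdf2, -0.66), and of 9 membrane linkers 1 was higher (Ezr, 0.51) and 1 lower (Filip1l, -0.90).

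The leukocyte partners of the members were read in the 235 WT and 125 KI cells with leukocyte markers, which were few. Selplg, which encodes PSGL-1, had 204 UMIs (295 CPM) in WT and 119 (191 CPM) in KI leukocyte-like cells. Itgb2, the beta2 chain of LFA-1 and Mac-1, had 83 (120 CPM) and 115 (185 CPM), and Itga4, the alpha chain of VLA-4, had 81 and 62. Over the list of 11 counter-receptors, 2 were higher and 3 lower, beside 39.5% of 6792 genes past the fold (24.6% higher and 14.9% lower). The makeup of the leukocyte-like cells differed, with 96 WT and 11 KI neutrophil-like cells and 39 and 43 macrophage-like or monocyte-like cells, and its part in these values was not tested.

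**Figure D5:**
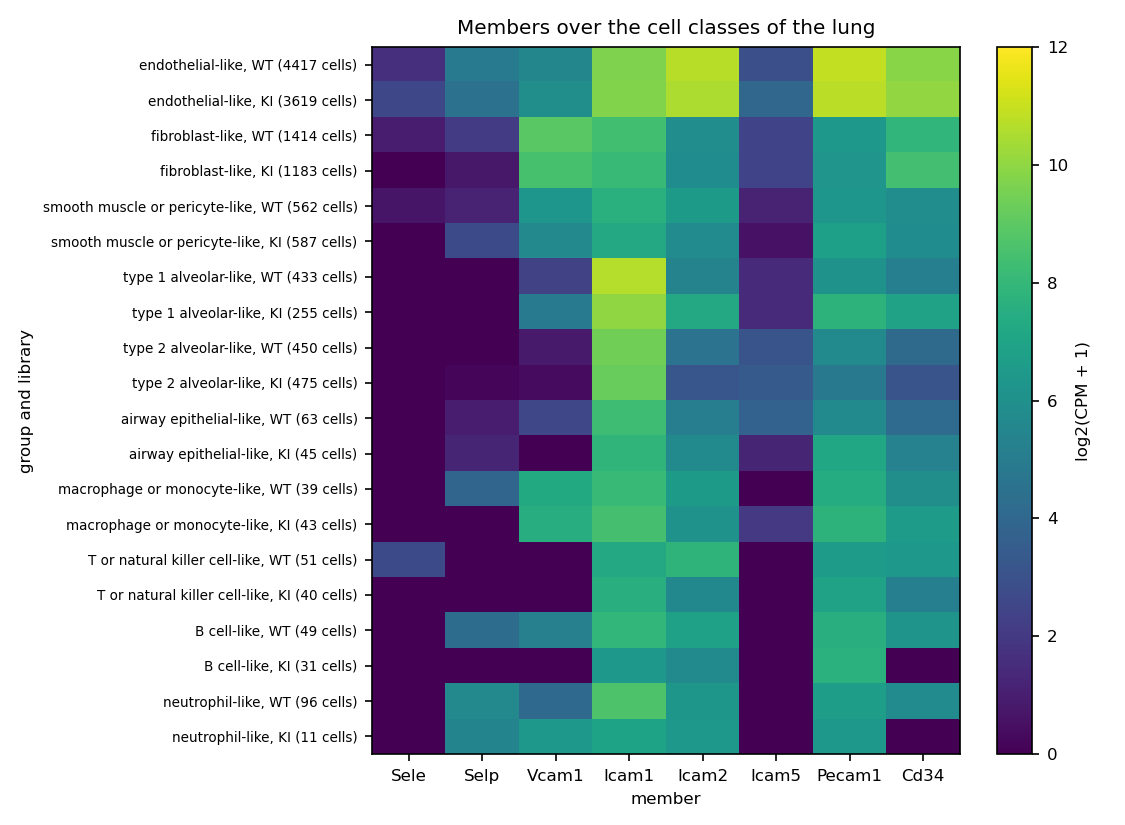
Colours give log2(CPM + 1) of each member (columns) in cell classes of the lung (rows, WT and KI side by side). Pecam1 and Icam2 are brightest in endothelial-like cells, Vcam1 in fibroblast-like cells at 493 and 365 CPM, and Icam1 in type 1 alveolar-like cells at 1614 and 1013 CPM.

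In alveolar-like cells, Pecam1, Icam2 and Cd34 had low levels that differed between libraries, in opposite directions in type 1 and type 2 cells. In type 1 alveolar-like cells Pecam1 stood at 71.4 CPM in WT and 218 CPM in KI, Icam2 at 40.5 and 149, and Cd34 at 34.8 and 121, log2 ratios of 1.61, 1.88 and 1.80. In type 2 alveolar-like cells they were lower in KI, with Pecam1 at 50.4 and 28.2 CPM, Icam2 at 22.9 and 8.34 and Cd34 at 16.6 and 7.61. Of the members measured, 4 of 5 were higher and 1 lower in type 1 cells, beside 21.2% and 11.1% of genes, and 0 of 5 higher and 3 lower in type 2 cells, beside 12.6% and 6.52%. In fibroblast-like cells 1 of 6 was higher (Cd34) and 0 lower, beside 18.1% and 7.68%. The part of RNA from endothelial cells in these values was not tested. Icam1 in type 1 alveolar-like cells stood the other way, with a log2 ratio of -0.67 (-0.77 to -0.57).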

How the data were processed

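The data are single-cell UMI counts of 2 mouse lung libraries, 1 WT and 1 p47phox-KI, with 1 library per genotype, read from the raw count matrices as deposited. Per the submitters' processing notes, the tools were R 3.5.3, Cell Ranger 2.0 and Seurat 2.3.4 and the build was mm10, whereas the header of each matrix gives software version 3.0.2. The counts were used unnormalized, and the aligner settings and strand setting are not given in the sources used here. Barcodes with at least 200 genes and at most 10% mitochondrial UMIs were kept. The doublet caller Scrublet marked 0 barcodes at its own threshold, so barcodes with the highest doublet scores were marked at an expected 0.8% per 1000 barcodes (877 WT and 665 KI) and left out.

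Cells were clustered in scanpy 1.11.5 (python 3.11.15) on 2000 variable genes per library and 30 principal components with 15 neighbours at resolution 1, without the members, giving 25 clusters of all cells and 17 of endothelial cells. Clusters were named from fixed markers. UMIs were summed per library and group and scaled to CPM. Shares of cells with a UMI were also taken after thinning each cell to 1500 UMIs. Intervals (scipy 1.17.1) are exact Poisson for levels, exact Clopper-Pearson for shares and exact conditional binomial for log2 ratios, at 95%, and cover counting error only; a count of 0 is given an upper limit of 3 counts. Neither genotype has a second library, so no test was made. The ratio calculation was tested on simulated data.

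The genes named are all members in every group, at most 4 genes per list and group with the largest log2 ratio past 0.5, and the 3 genes most like each member, among genes with at least 200 endothelial UMIs. Genes described beside the cluster division (Fabp4, Rbp7, Glycam1, Slc6a2, Hspa1a, Atf3, Neurl3, Cxcl10) and the antisense and neighbouring genes were picked with their values in view. The members and gene lists were chosen with earlier results of these data known. Alternatives were doublets kept, other cell filters, resolutions 0.5 and 2, each library clustered alone, members used for clustering, like cluster weights, other scalings, thinning and shared barcodes left out. Leaving out the top cell, cells with haemoglobin or Slc6a2 UMIs, adding unnamed cluster 2, and using only the Slc6a2-led or Fabp4-led cluster were alternatives chosen after seeing the data.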

Additional observations from a re-analysis of the deposited data

Results flagged for a closer look

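Some members stood higher in KI in one endothelial group and lower in another, and these differences between groups were not tested, since each genotype is 1 library. Selp had a log2 KI over WT of 0.74 in the Hspa1a-led cluster, -2.20 in the other general capillary-like clusters and -1.44 in venous-like cells. Vcam1 had 0.94 in the Hspa1a-led cluster, -1.66 in the other general capillary-like clusters and -0.83 in arterial-like cells. Icam5 had 1.08 in the Hspa1a-led cluster and -1.99 in venous-like cells.

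Endothelial cluster 2 stayed unnamed and held 347 WT and 65 KI cells. It was in no subtype, but its cells were counted among all endothelial cells. It also gave points to the Pearson r values over endothelial clusters, and was added to capillary cells only as an alternative. Vcam1 had 8 UMIs (4.57 CPM) in WT and 19 UMIs (43.9 CPM) in KI there, a log2 ratio of 3.26, and 1 KI cell held 18 of the 19. Unnamed cluster 12 (114 WT and 125 KI cells) was led by Pdgfrb, Gucy1a1 and Spp1, at median depths of 7176 and 7033 UMIs. It too was counted among all endothelial cells and gave points to the Pearson r values. Unnamed clusters 11 and 15, with Cldn18 among their leading genes, were smaller. Whether these clusters held doublets was not tested.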

How the results depend on the processing

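The number of members past the fold, by main value, was 2 in all endothelial cells, 4 in capillary, 2 in arterial-like and 3 in venous-like cells. The venous count lay between 2 and 4 under each alternative run, but not always with the same members or directions (with doublets kept 3 were higher and 0 lower). The cells so named also differed. With doublets kept they shared 49 of the 382 venous-like cells, and at resolution 0.5 they took in the Hspa1a-led cells. The range thus does not show how stable the count is for the same cells. With doublets kept the number past the fold was 1 in all endothelial, 1 in capillary and 0 in arterial-like cells. It was 4 in all endothelial cells with each library clustered alone, and 2 in capillary cells with like cluster weights. In arterial-like cells it was 0 with the stricter cell filter, 4 with no minimum of UMIs and 1 without the top cell, the last chosen after seeing the data. Of 806 log2 ratios of single members under alternatives, over 57 results, 572 moved less than counting error, 218 moved more and 16, all past the fold by main value, reversed. Sign changes of ratios inside the fold are not among the 16: Selp ran from -0.90 to 1.44 in all endothelial cells and from -3.78 to 1.09 in general capillary-like cells, where Icam1 ran from -0.50 to 0.37. With doublets kept the reversed ratios were Selp (-1.53) and Vcam1 (-0.12) in capillary cells, Sele (-0.24), Selp (0.62) and Icam5 (0.86) in venous-like cells, and Vcam1 (0.55) in the other general capillary-like clusters. At resolution 0.5 they were Sele (-1.17), Selp (-2.76) and Vcam1 (-0.52) in capillary cells, Sele (-1.10) and Vcam1 (-0.70) in general capillary-like cells, Icam5 (0.53) in venous-like cells and Selp (-0.93) in the Hspa1a-led cluster, where 1 cluster of 369 WT and 455 KI cells held both the venous-like and the Hspa1a-led cells. At resolution 2 they were Selp (0.086) and Vcam1 (0.77) in the other general capillary-like clusters, and with members used for clustering Selp (0.45) in arterial-like cells. With doublets kept, a cluster of 220 WT and 371 KI cells, 473 of them Hspa1a-led, was named venous-like and lay outside the capillary group. At resolution 2 the Fabp4-led cluster was named general capillary-like. These ratios are thus of partly other cells than the main ones, and how much of each reversal came from the naming was not tested. Each library clustered alone left 12 WT venous-like cells and 0 KI arterial-like cells, too few for a value. Sele, Icam5 and arterial-like Selp rest on under 100 UMIs in most groups, which limits what their ratios can show.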
